A study of Oreochromis niloticus with 16 samples.

Results

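The libraries described here are the 2 of 16 small RNA libraries of Nile tilapia (Oreochromis niloticus) that came from red muscle. Of these, 1 is labelled female and 1 male. They were found by their tissue label, and their sex is given by the sign in the file headers and by the initial of each title. The study built a repository of tilapia microRNAs (miRNAs) from whole embryos and larvae and from adult tissues, with 1 library for each condition. Both red muscle libraries came from adult fish of the Chitralada strain, from tissue that was frozen on dry ice, extracted with Trizol and sequenced on the Illumina GAIIx after TruSeq small RNA preparation. Neither library is labelled with a treatment or a genotype, and how many fish stand behind a library is not given in the sources used here. Sample titles number the female of red and of white muscle 8, whereas the males are numbered 1 in red and 2 in white muscle. With 1 library on each side there is no replicate and no test. Sex, the fish used, the dissection and the library cannot be told apart, and every comparison below is between these 2 libraries.

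A miRNA is cut from a hairpin precursor by Drosha and then by Dicer. The resulting duplex has an arm from the 5′ side (5p) and an arm from the 3′ side (3p), and as a rule 1 of them is kept in the Argonaute complex, where it guides the repression of mRNAs, while the other is degraded. Red muscle of a fish is the thin lateral layer of slow oxidative fibres below the skin, which is used in sustained swimming and is richer in capillaries and myoglobin than the fast white muscle that makes up most of the fillet. Bulk tissue of this kind also holds blood, vessel walls, connective tissue and nerve.

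The files count reads per arm and precursor locus in 2 ways, once as whole numbers, where a read with several matching loci adds 1 to all of them, and once with such a read divided among the loci. Levels here are the divided reads of a mature name, added up over its loci and scaled so that a library sums to 1000000 (CPM). The divided totals were 8611874 reads in the female library and 11517368 in the male library, which makes this the deepest pair of the series. The floor set by 3 reads was 0.348 CPM in the female against 0.260 CPM in the male. Of 577 names in the files, 396 had reads in both libraries, 45 in the female alone with at most 9 reads, and 20 in the male alone with at most 74 reads. A name was taken as measured if it had at least 50 divided reads over both libraries. This left 255 names, which held 99.98% of the reads of the female and 99.99% of those of the male. Intervals in parentheses after a ratio are exact 95% binomial intervals. They cover the counting error of reads only and say nothing of the spread between fish. Reads carry no molecular identifiers, so the intervals treat copies of the same molecule as separate counts.

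The labels were checked against muscle miRNAs. The slow and cardiac muscle miRNAs (both arms of miR-499 and of miR-736) summed to 8764 CPM in female and 3610 CPM in male red muscle, and in white muscle to 412 CPM (female) and 525 CPM (male). The whole muscle list (miR-1, miR-133, miR-206, miR-499 and miR-736) summed to 37040 CPM in female and 32899 CPM in male red muscle, and in white muscle to 281042 CPM (female) and 310654 CPM (male). Both red muscle libraries thus carried the slow fibre miRNAs well above white muscle, and the muscle list as a whole far below it. The muscle list was also higher in heart (77023 CPM) and in whole embryos at day 5 (57513 CPM). In whole larvae at day 10 (34199 CPM) it lay between the red muscle libraries. All remaining libraries were lower, with at most 11800 CPM, in whole embryos at day 4.

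As CPM, female red muscle stood above male red muscle for most miRNAs, and this general shift was all but gone with TMM factors, where the median log2 ratio was 0.030. At a ratio of at least 4, 48 of the 255 measured names were higher in the female (18.8%) and 9 were higher in the male (3.53%). At any size, 164 were higher in the female and 91 in the male, and 130 (51.0%) lay within 2-fold. The median log2 ratio of female over male was 0.55, a ratio of 1.47, with quartiles at -0.51 and 1.48. The 48 names summed to 76435 CPM in the female against 10806 CPM in the male, and the 9 names to 145.6 CPM in the female against 1527 CPM in the male. Of the 48 female-high names 46 belong to conserved families, and 5 of the 9 male-high names do, where 229 of all 255 measured names (89.8%) are conserved.

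**Figure D1:**
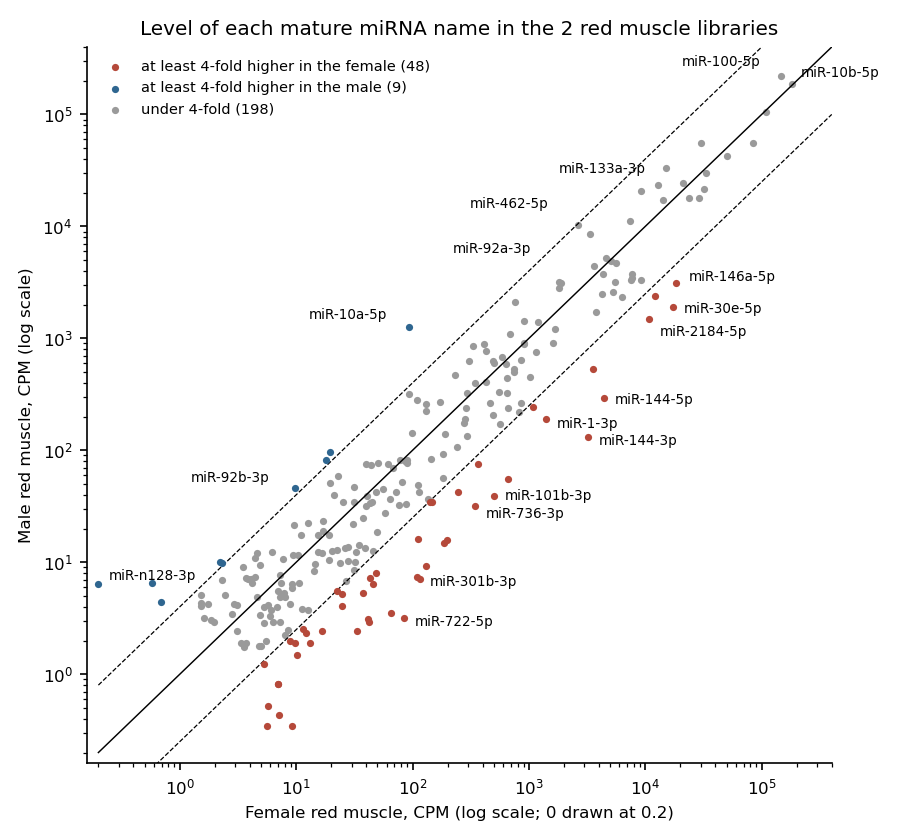
Level of each of the 255 measured mature miRNA names in female (x axis) and male (y axis) red muscle, in CPM on log scales, with 1 point per name. The solid line marks equal levels and the dashed lines a 4-fold ratio, and 48 names lie beyond the line on the female side and 9 beyond that on the male side.

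How many names stood out depends on the scaling. With TMM factors, which set the bulk of the names equal, all log2 ratios shifted by -0.52, and 36 names were at least 4-fold higher in the female and 14 in the male, so that 72.0% of the names past the limit were female-high in place of 84.2%. With median-of-ratios size factors the shift was -0.42, with 36 names in the female and 13 in the male (73.5% female-high). As either scaling shifts all ratios alike towards the male, it can only drop female-high names and add male-high ones. In the lists below, the median log2 ratio is therefore read against 0.55 over all measured names rather than against 0. Counts of list members past 4-fold in CPM are read against 18.8% in the female and 3.53% in the male over all measured names.

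Most of the abundant miRNAs lay within 2-fold in CPM. The leading name in the female was miR-10b-5p, a miRNA encoded in a Hox cluster, with 183764 CPM in the female against 187974 CPM in the male. The leading name in the male was miR-100-5p, of the miR-99/100 family, with 147440 CPM in the female against 218907 CPM in the male. The next were miR-26a-5p with 108399 CPM in the female against 105047 CPM in the male, and let-7a-5p with 84115 CPM in the female against 56074 CPM in the male. The sets of the 10 most abundant names shared 7 members. Of 16 names with a mean of at least 10000 CPM, 13 lay within 2-fold, 1 was at least 4-fold higher in the female and 0 in the male. Of 47 names with a mean of at least 1000 CPM, 28 lay within 2-fold, 7 were at least 4-fold higher in the female and 0 in the male. Over all 255 measured names, 51.0% lay within 2-fold, 18.8% were at least 4-fold higher in the female and 3.53% in the male. These counts are in CPM, and with TMM factors all log2 ratios shift by -0.52.

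Muscle miRNAs did not share 1 ratio. Of 13 names in the files, 11 were measured, with 3 at least 4-fold higher in the female, 0 in the male and a median log2 ratio of 0.42, which turned to -0.10 with TMM factors. miR-133a-3p, which acts on myoblast proliferation and on sarcomere genes, had 21279 CPM in the female against 24254 CPM in the male. miR-206-3p, a skeletal muscle miRNA, had 4292 CPM in the female against 3780 CPM in the male. Both lay close to equal levels in CPM, at log2 ratios of -0.19 and 0.18, below the median of 0.55 over all measured names. miR-1-3p, which is transcribed together with miR-133a in vertebrates, had 1405 CPM in the female against 189 CPM in the male, a ratio of 7.42 (7.09 to 7.77), and both values were far below the white muscle levels of 128719 CPM (female) and 171908 CPM (male). The slow fibre miRNAs were all higher in the female. miR-499-5p, encoded in an intron of a slow and cardiac myosin heavy chain gene, had 7531 CPM in the female against 3313 CPM in the male (ratio 2.27, 2.24 to 2.30), and its other arm, miR-499-3p, had 851 CPM in the female against 263 CPM in the male. miR-736-3p had 347 CPM in the female against 31.9 CPM in the male (ratio 10.9, 9.78 to 12.2), and miR-736-5p had 33.4 CPM in the female against 2.43 CPM in the male. In white muscle miR-736-3p was at 7.91 CPM in the female against 4.43 CPM in the male, so that it was above white muscle in both red muscle libraries.

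miRNAs of blood cells were among the names with the largest ratios. The red blood cell list (miR-144 and miR-451, a cluster switched on in erythroid cells) had 4 of 6 names measured, 2 of them at least 4-fold higher in the female and 0 in the male, with a median log2 ratio of 2.71. Its sum was 16962 CPM in the female against 3723 CPM in the male, and it was 1967 CPM (female) and 1597 CPM (male) in white muscle. miR-144-3p had 3231 CPM in the female against 132.3 CPM in the male, a ratio of 24.4 (23.2 to 25.7). miR-144-5p had 4448 CPM in the female against 295 CPM in the male, a ratio of 15.1 (14.6 to 15.6). The members of the cluster did not share 1 ratio: miR-451-5p-2, which is cut by Argonaute 2 without Dicer, had 9275 CPM in the female against 3290 CPM in the male, a ratio of 2.82 (2.78 to 2.85). In the male, miR-144-3p thus lay below the 355 CPM (female) and 477 CPM (male) of white muscle, whereas miR-451-5p-2 lay above the 1356 CPM and 949 CPM of that tissue. In such a bulk sample, fewer cells of a type and less of a miRNA per cell cannot be told apart.

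The leukocyte list (miR-142, miR-146 and miR-223) had 6 of 6 names measured, 3 of them at least 4-fold higher in the female and 0 in the male, with a median log2 ratio of 1.66. It summed to 22253 CPM in the female against 3811 CPM in the male, and to 11431 CPM (female) and 14757 CPM (male) in white muscle, so that the male red muscle library was below all 3 others. The sum of this list was largest in ovary, at 175029 CPM. Most of the sum in both red muscle libraries was miR-146a-5p, a brake on inflammatory signalling. It had 18508 CPM in the female against 3148 CPM in the male, a ratio of 5.88 (5.81 to 5.95). miR-142a-5p, a miRNA of all blood lineages, had 3559 CPM in the female against 536 CPM in the male, and miR-142a-3p had 65.5 CPM in the female against 3.56 CPM in the male. The ratio of the first was 6.64 (6.47 to 6.83) and that of the second 18.4 (13.4 to 25.9). With whole-number counts of the highest locus, the ratio of miR-142a-5p was 7.85, outside its interval. miR-223-3p, a miRNA of granulocytes, did not follow them, with 72.2 CPM in the female against 42.5 CPM in the male. miR-146a-3p was lower in the female, with 40.1 CPM in the female against 76.0 CPM in the male. miR-722, which has been studied in zebrafish neutrophils and was not on the list, was high in the female on both arms. miR-722-5p had 84.4 CPM in the female against 3.21 CPM in the male, a ratio of 26.3 (18.9 to 37.6), and miR-722-3p had 199.1 CPM in the female against 15.9 CPM in the male, a ratio of 12.5 (10.8 to 14.7). The part that blood in the dissected tissue plays in these ratios was not tested. Endothelial miR-126, a marker of vessel walls, was closer to equal, with 2 of 2 names measured, 0 past 4-fold and a median log2 ratio of 0.85. miR-126-3p had 31673 CPM in the female against 21616 CPM in the male, and miR-126-5p had 7662 CPM in the female against 3456 CPM in the male.

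By amount in CPM, the largest differences on the female side were let-7a-5p, miR-30e-5p, miR-146a-5p, miR-27c-3p and miR-126-3p. With TMM factors let-7a-5p, miR-27c-3p and miR-126-3p were nearly level, at ratios of 1.05, 1.13 and 1.02. Among the 5 miR-30e-5p had 17429 CPM in the female against 1917 CPM in the male, a ratio of 9.09 (8.97 to 9.22). The 17429 CPM of the female exceeded the 2651 CPM (female) and 4748 CPM (male) of white muscle. The rest of the miR-30 family, regulators of cell fate in many tissues, did not share this. miR-30d-5p had 12735 CPM in the female against 23391 CPM in the male, miR-30c-5p had 1823 CPM in the female against 2840 CPM in the male, and the 3p arm of the miR-30e hairpins, miR-30e-3p, had 913 CPM in the female against 895 CPM in the male. Over the 10 measured miR-30 names, 1 was at least 4-fold higher in the female and 0 in the male, and the median log2 ratio was -0.31. With TMM factors miR-30c-3p-2, with 92.5 CPM in the female against 320 CPM in the male, also passed the limit in the male. Further abundant names past the limit in CPM were miR-338-3p, a miRNA of glia and neurons encoded in an intron of a kinase gene, with 12080 CPM in the female against 2406 CPM in the male, and the fish miRNA miR-2184-5p with 10797 CPM in the female against 1477 CPM in the male. With TMM factors the ratio of miR-338-3p was 3.50, under the limit. let-7j-5p, of the family that marks differentiated cells, had 1079 CPM in the female against 245 CPM in the male, and it too was under the limit with TMM factors.

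Several families that act in cell proliferation and growth had members at very different ratios. The miR-17-92 group, a set of related clusters best known for promoting proliferation, had 13 of 24 names measured, 6 at least 4-fold higher in the female (4 with TMM factors) and 1 in the male, and a median log2 ratio of 1.89. Its ratios ran from 14.7 (11.8 to 18.6) for miR-19a-3p, with 109 CPM in the female against 7.38 CPM in the male, down to 0.211 (0.165 to 0.266) for miR-92b-3p, with 9.75 CPM in the female against 46.3 CPM in the male. Between them lay miR-19b-3p with 363.5 CPM in the female against 76.2 CPM in the male, miR-20a-5p with 111 CPM in the female against 16.1 CPM in the male, and miR-17a-5p with 147 CPM in the female against 34.6 CPM in the male. With TMM factors miR-19b-3p (ratio 3.32) and miR-17a-5p (ratio 2.96) were under the limit. The most abundant member, miR-92a-3p, went the other way, with 3378 CPM in the female against 8499 CPM in the male, so that the sum of the list was lower in the female (5512 CPM) than in the male (10203 CPM). Median and sum of this list therefore differ in direction, under TMM factors as well. miR-25-3p was close to equal in these units, with 1202 CPM in the female against 1413 CPM in the male.

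The family of miR-148 and miR-152, which share a seed, had 4 of 4 names measured, 3 of them at least 4-fold higher in the female and 0 in the male, and a median log2 ratio of 3.04. miR-148a-3p had 185 CPM in the female against 14.8 CPM in the male, and miR-148a-5p had 245 CPM in the female against 42.6 CPM in the male. miR-152-3p had 655 CPM in the female against 55.5 CPM in the male, a ratio of 11.8 (10.9 to 12.8), while miR-152-5p had 587 CPM in the female against 679 CPM in the male. miR-101b-3p, known in mammals to repress the histone methyltransferase EZH2, had 506 CPM in the female against 39.2 CPM in the male, a ratio of 12.9 (11.7 to 14.2). Also among the 12 names whose intervals lay farthest from 1 on the female side were miR-301b-3p, miR-24-5p-4 and miR-33-5p. miR-301b-3p, which has the seed of miR-130, had 115 CPM in the female against 7.03 CPM in the male. miR-24-5p-4, from a hairpin of the miR-23/24/27 clusters, had 129.5 CPM in the female against 9.20 CPM in the male. miR-33-5p, encoded in a gene for a regulator of cholesterol synthesis, had 42.6 CPM in the female against 2.95 CPM in the male. The 12 were chosen by the lower bound of the ratio. In CPM this was above 10 for all of them, as the smallest, that of miR-33-5p, was 10.1. With TMM factors these bounds are lower, as all log2 ratios shift by -0.52.

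**Figure D2:**
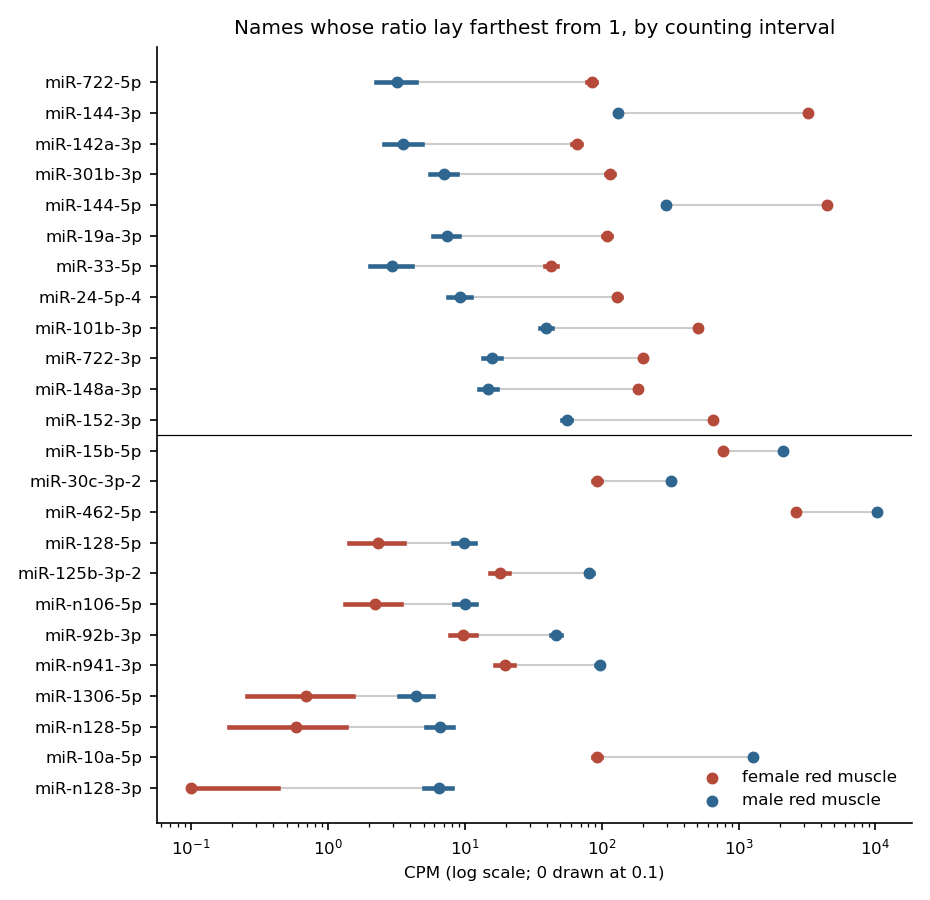
CPM on a log scale (x axis) in female and male red muscle for the 12 names on each side whose counting interval of the ratio lay farthest from 1, female-high names above the line and male-high names below it. Points are the libraries, thick bars exact 95% Poisson intervals, and a library at 0 is drawn at 0.1. miR-144-3p stands at 3231 CPM in the female against 132.3 CPM in the male, and miR-10a-5p at 92.5 CPM in the female against 1265 CPM in the male.

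On the male side miR-10a-5p was the most abundant of the 9 names past 4-fold, with 92.5 CPM in the female against 1265 CPM in the male. The ratio of male over female was 13.7 (12.7 to 14.7). miR-10a lies in a Hox cluster, as do the other miR-10 genes and miR-196, and these mark the position of a tissue along the body axis. Over the Hox cluster list 12 of 14 names were measured, 0 at least 4-fold higher in the female and 1 in the male, with a median log2 ratio of 0.12 that turned to -0.40 with TMM factors. Its other abundant members were nearly level in CPM, and so below the median log2 ratio of 0.55 over all measured names. miR-10c-5p had 33305 CPM in the female against 29768 CPM in the male, and miR-10d-5p had 5114 CPM in the female against 4861 CPM in the male. In white muscle miR-10a-5p was at 1945 CPM in the female against 1556 CPM in the male, so that it was the female red muscle library that stood apart.

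Of the names with a mean of at least 1000 CPM, those higher in the male stayed under 4-fold. miR-181a-5p, known from lymphocyte and muscle differentiation, had 30053 CPM in the female against 55213 CPM in the male. miR-125b-5p had 14964 CPM in the female against 33297 CPM in the male, and miR-125a-5p had 9123 CPM in the female against 20756 CPM in the male. With miR-100-5p and miR-30d-5p, these were the largest differences in amount on the male side. The list of miR-99, miR-100 and miR-125 had 12 of 12 names measured, with 1 at least 4-fold higher in the female (miR-100-3p), 1 in the male (miR-125b-3p-2) and a median log2 ratio of -0.56, and 9 of the 12 were higher in the male. miR-462-5p, a teleost miRNA induced by interferon in several fishes, stayed just short of the limit with 2643 CPM in the female against 10316 CPM in the male, a ratio of male over female of 3.90 (3.85 to 3.96), and it passed with TMM factors. miR-15b-5p, a regulator of the cell cycle, had 766 CPM in the female against 2099 CPM in the male.

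The other 7 names at least 4-fold higher in the male were rare. miR-n941-3p had 19.5 CPM in the female against 96.9 CPM in the male, and miR-125b-3p-2, the minor arm of an abundant miRNA, passed at 4.52-fold (3.81 to 5.39). miR-128-5p, an arm of a neuronal miRNA, had 2.32 CPM in the female against 9.90 CPM in the male, and miR-n106-5p had 2.21 CPM in the female against 10.1 CPM in the male. miR-1306-5p had 0.697 CPM in the female against 4.43 CPM in the male. Both arms of miR-n128 were found almost in the male alone. miR-n128-3p had 0 reads in the female and 74 reads (6.43 CPM) in the male, at least 18.4-fold lower in the female against the floor of 3 reads per library, and miR-n128-5p had 5 reads in the female and 76 reads in the male. Names with an n are putative tilapia miRNAs. Of 174 in the files only 26 were measured, 2 at least 4-fold higher in the female and 4 in the male, with a median log2 ratio of -0.50. Over all 255 measured names, 18.8% passed in the female and 3.53% in the male. The 2 putative names on the female side, miR-n260-5p and miR-n885-5p, had the same 60.5 divided reads in the female and 9.5 in the male. Their 3p arms were equal as well, at 2.21 CPM in the female against 0.304 CPM in the male. If the 2 names divide the same reads, they carry 1 measurement.

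**Figure D3:**
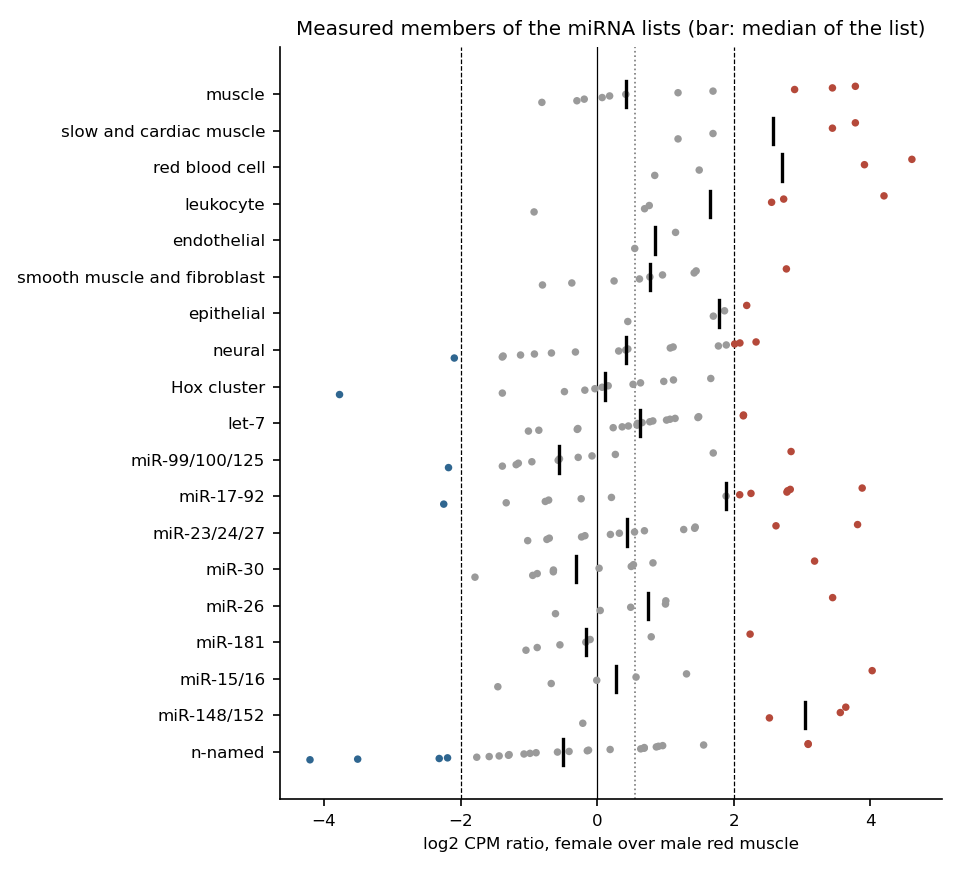
Log2 CPM ratio of female over male red muscle (x axis) for the measured members of 19 miRNA lists, 1 point per name. Black bars mark the median of a list, the dotted line the median of 0.55 over all 255 names and the dashed lines a 4-fold ratio. The red blood cell list has its median at 2.71 and the list of miR-99, miR-100 and miR-125 at -0.56.

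Markers of epithelium, pancreas, gonad and liver were low in both libraries, whereas smooth muscle and fibroblast markers were abundant. The epithelial list (miR-200, miR-141, miR-429, miR-203 and miR-205) summed to 255 CPM in the female against 78.3 CPM in the male, and to 2836 CPM (female) and 2550 CPM (male) in white muscle. It had 4 of 11 names measured, 1 of them at least 4-fold higher in the female (0 with TMM factors) and 0 in the male, and a median log2 ratio of 1.78. The smooth muscle and fibroblast list (miR-143, miR-145, miR-199 and miR-214) had 9 of 15 names measured, 1 at least 4-fold higher in the female, 0 in the male and a median log2 ratio of 0.77, and summed to 64191 CPM in the female against 49718 CPM in the male. Its leading name miR-143-3p had 50426 CPM in the female against 42450 CPM in the male. The neural list had 17 of 55 names measured, with 3 at least 4-fold higher in the female, 0 of them with TMM factors, and 1 in the male. Its median log2 ratio was 0.42, and -0.10 with TMM factors. Its sum of 12841 CPM in the female against 3599 CPM in the male was carried by miR-338-3p. The other abundant members did not all lie on the female side: miR-128-3p had 413 CPM in the female against 899 CPM in the male, miR-153c-3p had 135 CPM in the female against 36.5 CPM in the male, and miR-212-5p had 22.9 CPM in the female against 59.4 CPM in the male. miR-124a-3p, which defines neurons, was near the floor with 1.97 CPM in the female against 1.04 CPM in the male. The retina and lens list had 6 of 16 names measured and the pancreas and pituitary list 4 of 11, with 0 and 1 at least 4-fold higher in the female, 0 in the male, and median log2 ratios of 0.69 and 1.48. Most of the retina and lens sum was miR-204-5p, with 817 CPM in the female against 220 CPM in the male. The pancreas and pituitary name past the limit was miR-216a-5p, with 13.1 CPM in the female against 1.91 CPM in the male. The gonad miRNA miR-202 had 0 reads in both libraries, and the liver list had 1 of 6 names measured, at 9.64 CPM in the female against 2.69 CPM in the male over all its names.

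The female and male libraries of white muscle and of brain, which share no library with the red muscle pair, show how far 2 single libraries can differ elsewhere. In white muscle 8 of 200 measured names (4%) were at least 4-fold higher in the female and 4 (2%) in the male. In brain 5 of 255 (1.96%) were at least 4-fold higher in the female and 10 (3.92%) in the male. These pairs were sequenced less deeply, with divided totals from 3541979 to 6773179 reads. The titles give the female of white muscle the same number as that of red muscle. Whether the same fish stood behind both libraries is not given. Of the 48 names high in female red muscle, 33 were measured in white muscle, 7 higher in the female and 26 in the male, 0 and 1 of them past 4-fold. Their median log2 ratio in white muscle was -0.44, against 0.14 for the 190 names measured in both tissues. In brain 33 of the 48 were measured, 15 higher in the female and 18 in the male, with a median log2 ratio of -0.08 against -0.10 for 188 names. Of the 9 male-high names 4 were measured in white muscle, and all 4 were higher in the female there, as were 105 of the 190 names. In brain 4 of the 9 were measured, 2 higher in the female and 2 in the male, with a median log2 ratio of -0.04.

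**Figure D4:**
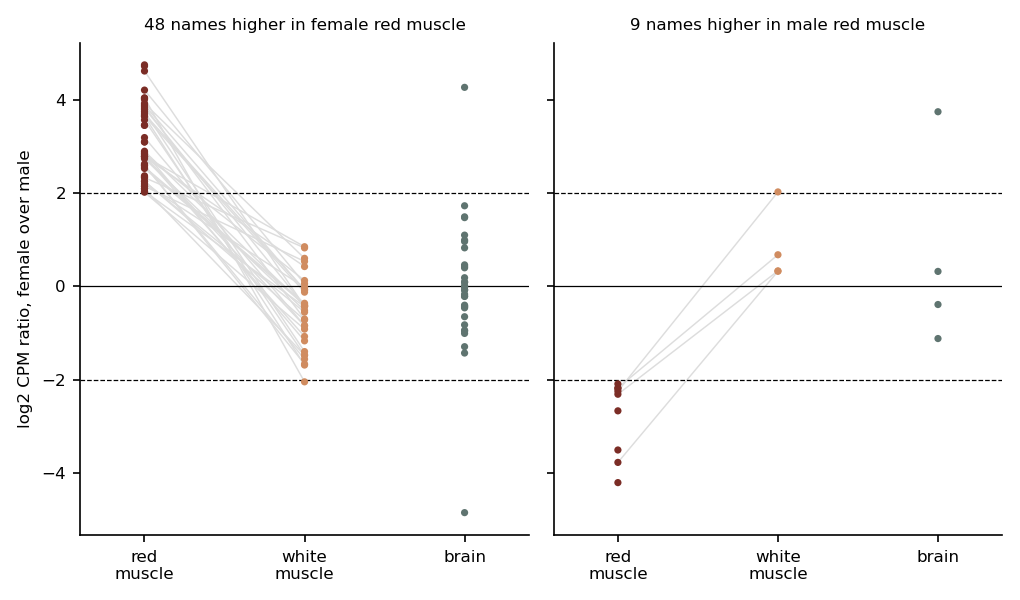
Log2 CPM ratio of female over male (y axis) in red muscle, white muscle and brain for the 48 names high in female red muscle (left) and the 9 names high in male red muscle (right). Points are names measured in that tissue, grey lines join a name between red and white muscle, and dashed lines mark a 4-fold ratio. Of 33 of the 48 names measured in white muscle, 26 lie below 0.

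The 48 names were chosen for a low male and a high female red muscle value, so their place among the other libraries is given as a description. Of the 48, male red muscle was the lowest of the 16 libraries for miR-18a-5p, miR-20a-5p, miR-143-5p, miR-148a-3p, miR-190a-5p and miR-200a-3p. Female red muscle was the highest of the 16 for miR-33-5p, miR-100-3p, miR-142a-5p, miR-144-3p, miR-338-3p, miR-722-5p, miR-736-3p and miR-2184-5p. These were 6 (12.5%) and 8 (16.7%) of the 48. Over all 255 measured names, male red muscle was the lowest for 11 (4.31%) and female red muscle the highest for 23 (9.02%). As an example, miR-144-3p was at 355 CPM (female) and 477 CPM (male) in white muscle, below female and above male red muscle. miR-190a-5p, encoded in an intron of a talin gene, had 41.7 CPM in female and 3.13 CPM in male red muscle, against 5.93 CPM (female) and 15.6 CPM (male) in white muscle.

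The arms of a miRNA often had different ratios. Of the 48 female-high names 31 had another arm that was measured. Arms were paired by name, and names are summed over loci. A partner such as miR-24-3p, paired with several 5p names, can therefore hold reads of other hairpins. That arm was also at least 4-fold higher in the female for 13, lower in the female for 6, and at a median log2 ratio of 1.27. Over all measured names 180 had such an arm, at least 4-fold higher in the female for 28, lower in the female for 65, and at a median log2 ratio of 0.43. Both arms passed for miR-20a, miR-142a, miR-144, miR-148a, miR-722 and miR-736, and each of these was counted from both sides among the 13. In contrast, miR-146a-3p had 40.1 CPM in the female against 76.0 CPM in the male, on the other side of miR-146a-5p. miR-16b-3p had 7.08 CPM in the female against 0.434 CPM in the male, whereas miR-16b-5p had 687 CPM in the female against 1094 CPM in the male. To count such cases, the ratio of 5p to 3p reads was compared between the female and the male library. Hairpins needed at least 50 whole-number reads in each library and at least 20 of each arm over both libraries. To each count 0.5 was added, and no counting interval was applied, so that some cases rest on few reads. This measure was chosen after the values had been seen. It differed at least 4-fold for 28 hairpins in red muscle, 21.1% of those with enough reads, from 23 distinct hairpin names. In white muscle it did so for 8 hairpins (7.55%) and in brain for 4 (2.72%), without merging loci of the same name.

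Another count asks whether the dominant arm itself differed. A hairpin was counted as switching if the Wilson 95% interval of its 5p share was above 50% in one library and below 50% in the other, with at least 50 whole-number reads in each. In red muscle 11 of 202 hairpins (5.45%) switched, in white muscle 0 of 186 (0%) and in brain 4 of 230 (1.74%). The 0 in white muscle held for whole-number counts only. With divided counts the shares were 5.43% in red muscle, 1.19% in white muscle and 2.21% in brain. The white muscle and brain pairs were sequenced less deeply, which widens their intervals, so these shares are not compared at equal depth. The 11 carry 7 distinct hairpin names. Not all of them had also passed the 4-fold limit for the ratio of 5p to 3p reads. The mir-199a hairpins, mir-214-3 and mir-460 were under that limit. The 5p arm led in both red muscle libraries for 110 hairpins and the 3p arm for 77, and the shares lay within 5 percentage points for 157. The 5p share of mir-101b was 15.1% (14.2 to 16.1) in the female and 67.5% (64.9 to 69.9) in the male. In female and male white muscle it was 18.7% and 9.98%, so that the male red muscle library stood apart. The 5p share of mir-152 was 47.3% (46.3 to 48.2) in the female and 92.5% (91.87 to 92.99) in the male, against 74.1% and 52.1% in female and male white muscle. In CPM it was the 3p arm of both hairpins that differed, as given above, while the 5p arm was within 1.2-fold. miR-101b-5p had 90.2 CPM in the female against 81.4 CPM in the male. This near equality of the 5p arms is in CPM only, as all log2 ratios shift by -0.52 with TMM factors.

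The other switches were smaller or rested on fewer reads. The 4 mir-199a hairpins, from loci that share their reads, had 5p shares from 46.4% to 49.0% in the female and from 57.6% to 59.9% in the male, close to equal arms in both. The 2 mir-18a hairpins share the same reads, and their 5p share was 93.6% of 94 reads in the female and 28.8% of 59 reads in the male. mir-214-3 had 58.3% (56.5 to 60.2) in the female and 29.2% (27.8 to 30.7) in the male, and mir-460 had 39.0% (35.2 to 42.9) in the female and 58.9% (52.0 to 65.5) in the male. The putative mir-n498 had 30.3% of 66 reads in the female and 70.8% of 113 reads in the male. A hairpin that did not meet the rule but differed widely was mir-33, with a 5p share of 52.96% (49.2 to 56.6) in the female and 10.6% (7.68 to 14.4) in the male. In mir-30e-1 the 5p arm stayed dominant, at 95.03% in the female and 68.2% in the male, against 92.8% and 95.96% in female and male white muscle.

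**Figure D5:**
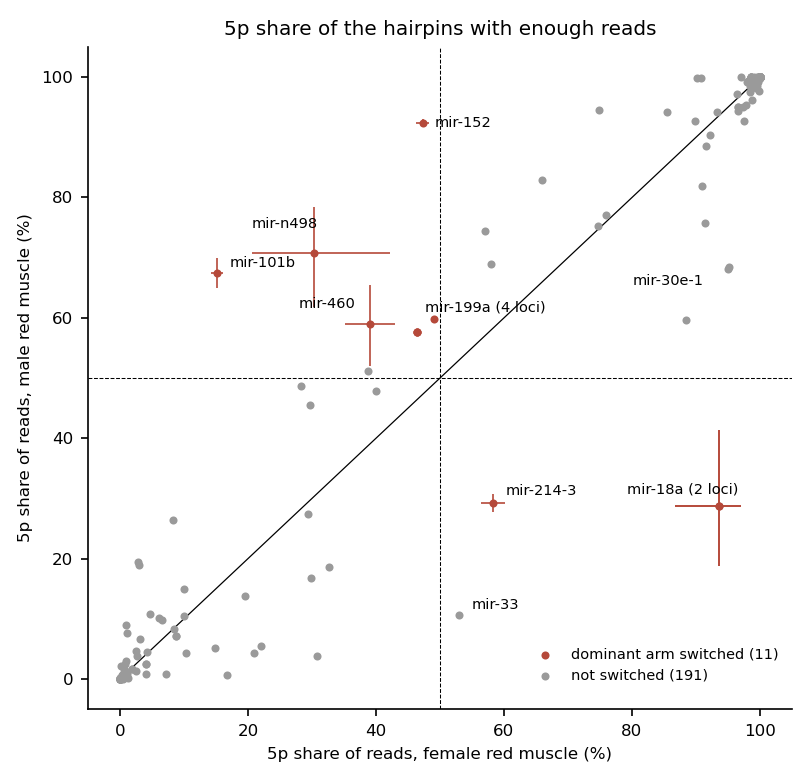
Share of the 5p arm among the reads of each of 202 hairpins in female (x axis, %) and male (y axis, %) red muscle, from whole-number counts, 1 point per hairpin. The 11 hairpins whose dominant arm switched are marked, with Wilson 95% intervals, and lie in the upper left and lower right of the plot, such as mir-152 at 47.3% in the female and 92.5% in the male.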

How the data were processed

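The authors' deposited files, 1 per library, give whole-number counts per arm and locus, in which a read counts at each locus it matches, and estimated counts, deposited in a second column, in which that read is divided over its loci. Neither is normalized. The paper places precursors on oreNil2 with PaTMan, and DESeq stands in the submitters' processing notes with no version. How reads were trimmed, matched and counted is not given in the sources used here. All 736 lines were read, and 2 without a mature name (0 reads) were left out.

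CPM, exact Poisson and binomial intervals and Wilson intervals were computed in Python 3.11.15 (numpy 2.4.6, pandas 2.3.3, scipy 1.17.1, matplotlib 3.10.9), and TMM factors in R 4.3.3 with edgeR 4.0.16. A ratio for a library at 0 was taken against 3 reads and is a bound. The scripts were tested on simulated data. With 1 library per group no test across libraries was made.

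Named miRNAs were drawn from sets set by rule, and not every member of these sets is given. The sets are the 12 in each direction whose interval of the ratio lies farthest from 1 and the 5 largest CPM differences in each direction. They also hold the 8 most abundant of each library and up to 4 of the most abundant measured members of each of 28 lists. Further members are the hairpins that switch arm with the 5 largest differences in 5p share. The names miR-1-3p, miR-133a-3p and miR-184-3p were added from the paper, which names the mir-133a-1 gene rather than its 3p arm. Others were named after their values were seen, where a count or family called for it. Members and lists were chosen with earlier results of these data known. Lists rest on general knowledge of miRNA families. miR-184-3p had 43.0 CPM in the female against 33.7 CPM in the male. miR-184-3p-2, which the paper also names, had 23.7 CPM in the female against 9.90 CPM in the male.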

Additional observations from a re-analysis of the deposited data

Results flagged for a closer look

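Of the names past 4-fold in red muscle, 4 were past 4-fold in the opposite direction in another tissue. Of the 48 female-high names, 33 were measured in white muscle and 33 in brain, with 1 past 4-fold towards the male in each. Of the 9 male-high names, 4 were measured in each of these tissues, with 1 past 4-fold towards the female in each. In the same direction, 1 female-high name passed, in brain. Of all names measured in red muscle, 8 of 190 passed in the female and 3 in the male in white muscle. In brain these were 5 and 4 of 188. The ratios below are female over male, with 1 library on each side, and the difference between tissues was not tested. miR-301b-3p had a ratio of 16.4 in red muscle and of 0.242 in white muscle, where it had 2.82 CPM in the female against 11.7 CPM in the male. miR-92b-3p had a ratio of 0.211 in red muscle and of 4.06 in white muscle, with 32.2 CPM in the female against 7.93 CPM in the male. miR-10a-5p had a ratio of 0.0732 in red muscle and of 13.3 in brain, with 3370 CPM in the female against 253 CPM in the male. miR-200a-3p had a ratio of 4.57 in red muscle and of 0.0347 in brain, with 21.4 CPM in the female against 618 CPM in the male, and its red muscle ratio was under 4 with TMM factors.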

How the results depend on the processing

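With whole-number counts of the highest locus of each name, 48 names were at least 4-fold higher in the female and 9 in the male. With TMM factors the counts were 36 and 14 and the median log2 ratio was 0.030, and with median-of-ratios size factors they were 36 and 13 with a median of 0.13. Without the most abundant name of each library they were 42 and 10, with a median of 0.40. With at least 200 reads, 34 names were female-high and 4 male-high, and with at least 1 read, 85 of 456 were female-high and 17 male-high, with a median of 0.42. At a ratio of at least 2 the counts were 92 and 33. In red muscle dominant arms switched in 10 hairpins with divided counts, 8 of 161 at 200 reads and 11 of 227 at 20 reads, and 9 switched under both kinds of count. With divided counts mir-18a fell under 50 reads and mir-214-3 had 5p shares of 73.7% in the female and 45.2% in the male. With divided counts 2 hairpins switched in white muscle in place of 0, and 5 in brain in place of 4. No paired analysis was possible because each condition has 1 library, and for the same reason no replicate could be left out.

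The depth allows ratios of names with few reads only within wide intervals, such as 10.1 to 100.6 for miR-301c-3p with 80 reads in the female and 4 in the male. Loci that share reads, such as those of mir-199a, count as several hairpins but carry 1 measurement. Neither the spread between fish nor that between libraries of 1 fish can be had from these files.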

Other observations

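Beyond the comparisons above, the lists of miR-26, miR-29, miR-21 and miR-221 with miR-222 were close to the general shift or moderately above it. The miR-29 list, known for repressing collagen genes, had 3 of 7 names measured and a median log2 ratio of 1.00, and miR-29a-3p had 646 CPM in the female against 323 CPM in the male. miR-21-5p, which is high in growing and injured tissue, had 23837 CPM in the female against 17835 CPM in the male. The let-7 list had 20 of 28 names measured, 2 at least 4-fold higher in the female (0 with TMM factors), 0 in the male and a median log2 ratio of 0.62. The list of miR-23, miR-24 and miR-27 had 14 of 22 names measured, 2 at least 4-fold higher in the female, 0 in the male and a median of 0.44, which turned to -0.08 with TMM factors. Medians were 0.75 over 6 names of miR-26, 0.78 over 3 of miR-21, 1.12 over 4 of miR-221 with miR-222 and 1.92 over 2 of miR-101, with 1, 0, 1 and 1 names at least 4-fold higher in the female and 0 in the male. With TMM factors the name of miR-222, miR-222a-5p-2, was under the limit at 2.85. None of the 577 names was of miR-430, a miRNA of early embryos. The miR-181 list had a median log2 ratio of -0.17 over 7 names, with 5 of them higher in the male, and the miR-15/16 list had a median of 0.28 over 6 names that turned to -0.24 with TMM factors.

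Among the minor arms, mir-212-1 had 197 reads of 5p and 20 of 3p in the female, against 684 and 1 in the male. Its ratio of 5p to 3p reads, with 0.5 added to each count, was 47.4 times larger in the male, and this size rests on the 1 read of the 3p arm. Minor arms high in the female included miR-100-3p, with 45.4 CPM in the female against 6.34 CPM in the male, and miR-143-5p, with 16.6 CPM in the female against 2.43 CPM in the male, although their abundant arms were within 1.5-fold.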
